A study of Mus musculus with 20 samples.

Results

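The genes described here make up the MHC class I antigen presentation pathway and the immunoproteasome that feeds it. They were taken by name, and all 10 were found in both deposited count tables: H2-K1, H2-D1, B2m, Tap1, Tap2, Tapbp, Nlrc5, Psmb8, Psmb9 and Psmb10. They are 10 of 26608 genes in a table of Control and LOY kidneys, of which 14978 were tested, and 10 of 30809 genes in a table of compound-treated kidneys, of which 16956 were tested. All 10 passed the filter on low counts in each table.

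The samples were whole kidneys of aged mice that had received a bone marrow transplant, with 1 RNA-seq library per animal. LOY stands for loss of the Y chromosome, here in the blood system that grew from the transplant. The first table compared 6 Control with 6 LOY kidneys, and neither group has a compound named in its labels. The second held LOY kidneys only, 4 from animals given a control compound and 4 from animals given ABT263 (navitoclax), an inhibitor of BCL-2 family proteins used as a senolytic. All 20 kidneys therefore share the transplant. The labels state neither mouse strain, sex, exact age nor the way the Y chromosome was removed, and no dose or treatment time. Some animal numbers occur in both tables, and the labels do not say whether these are the same animals.

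MHC class I molecules display short peptides from inside the cell on its surface, where CD8 T cells read them and natural killer cells check that they are there. A polymorphic heavy chain (in the mouse H2-K1 or H2-D1) pairs with β2-microglobulin, the product of B2m. Peptides are cut by the proteasome, pumped into the endoplasmic reticulum by the TAP transporter (Tap1 and Tap2) and loaded with the help of tapasin (Tapbp). Interferon gamma induces these genes and replaces the catalytic subunits of the proteasome (Psmb5, Psmb6, Psmb7) with inducible ones (Psmb8, Psmb9, Psmb10), giving the immunoproteasome. Nlrc5 encodes the transactivator that drives the promoters of class I genes. Nearly every nucleated cell makes class I, and leukocytes and endothelium make more of it than tubular epithelium does.

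In GENCODE M21 (GRCm38) 7 of the 10 genes lie on chromosome 17, B2m on chromosome 2, and Nlrc5 and Psmb10 on chromosome 8. RefSeq promoters (GRCm38.p6) were matched for 8 of the 10 genes, and Tap2 and Nlrc5 were not among them. The 250 bases before each start were searched on both strands for GAAA followed by any 2 bases and GAAA again, the core of an interferon-stimulated response element. Of the 8 genes, B2m alone held it, at 1 position whose first base lies 139 bases before the start. Among 32851 RefSeq promoters of the same length 2.98% held this pattern. The B2m promoter is shown because it alone of the 8 held this pattern. It is the plus strand of chr2:122147437-122147686, and capitals mark the matched pattern.

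B2m promoter: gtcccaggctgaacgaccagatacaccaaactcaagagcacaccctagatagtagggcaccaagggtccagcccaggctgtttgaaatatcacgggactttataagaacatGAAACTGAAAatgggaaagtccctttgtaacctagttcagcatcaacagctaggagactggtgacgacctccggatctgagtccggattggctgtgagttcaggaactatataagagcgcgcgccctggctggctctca

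Psmb9 and Tap1 are transcribed away from each other from RefSeq starts with 225 bases between them, and this stretch also lies in the 5′ untranslated region of a longer Psmb9 transcript in GENCODE. A κB-type pattern, GGG and CC with any 5 bases between them, matched it at 5 positions, some of them overlapping, counted over both strands. This pattern is common, being present in 45.8% of the same RefSeq promoters. Of the 8 genes 5 held it, with 4 (B2m) to 7 (H2-K1) matches, and Psmb8, Psmb10 and Tapbp did not. These are matches and not places, since a place that matched on both strands was counted for each strand. The run below is the stretch of at most 30 bases that held most of the matches (plus strand, chr17:34187480-34187508, GRCm38.p6), with matched bases in capitals.

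Psmb9-Tap1 run: GGGTCCTGCCCtcaatctgGGGTGGGGCC

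A further pattern, TTC and GAA with any 3 bases between them (the gamma-activated site), was present in the promoter of Psmb8 alone among the 8 genes, and in 7.02% of all RefSeq promoters. A match to letters is a description of the sequence and not a binding site, and a missing match says only that these letters are not in the window.

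Total counts per kidney lay between 13332563 and 19386408 in the Control and LOY table and between 14587809 and 20791633 in the compound table. The widely expressed Y-linked gene Ddx3y was at 64.5 ± 5.97 CPM in Control and 57.0 ± 10.1 CPM in LOY kidneys (adjusted p = 0.378). Kidney cells contribute to this value, so it does not check the labels. In the first table libraries differed by transcript length: LOY animal 8 had short transcripts (exons under 1 kb) higher by a median of 1.01 on the log2 scale than the mean library, and transcripts over 4 kb lower by 0.38 (median deviation -0.38). For short transcripts Control animal 3 and LOY animals 5 and 9 deviated by 0.17 to 0.32, and the 5 Control animals numbered above 10 by -0.25 to -0.18. For some results below in which LOY animal 8 stood apart, the value without it is given. Others carry only the range over repeats without 1 kidney, the value without LOY animals 8 and 10, or neither.

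**Figure D1:**
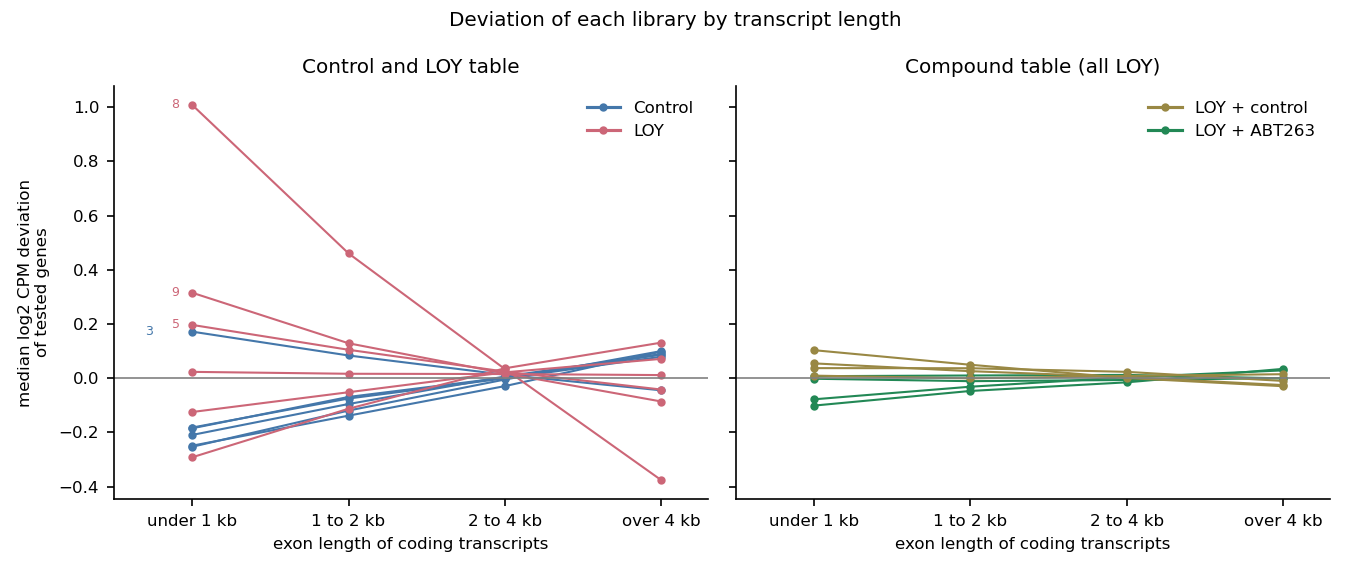
Median log2 CPM deviation of the tested genes from their mean over the libraries of the same table (vertical axis), by exon length class (horizontal axis), with 1 line per library coloured by group and the animal number at lines that start high. LOY animal 8 starts at 1.01 for transcripts under 1 kb and ends at -0.38 over 4 kb, while the compound-table libraries stay between -0.10 and 0.10.

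Ordered by their level per kilobase of exon (CPM, counts scaled to library size, divided by exon length), B2m stood highest in Control kidneys at 373 ± 69.6 CPM per kb (SD, n = 6). H2-K1 followed at 272 ± 20.8, H2-D1 at 116 ± 10.1 and Tapbp at 38.8 ± 3.93 CPM per kb. The inducible proteasome subunits were far lower, with Psmb10 at 15.6 ± 4.19, Psmb8 at 11.7 ± 3.47 and Psmb9 at 6.37 ± 1.06 CPM per kb. Tap1 (8.06 ± 1.17) and Tap2 (6.26 ± 0.58) lay among them, and Nlrc5 was lowest at 1.48 ± 0.30 CPM per kb. Neighbours in the order from Psmb10 through Psmb8, Tap1 and Psmb9 to Tap2 differed by less than the sum of their SDs, while the steps above Psmb10 and below Tap2 were wider. LOY and control-compound kidneys had this order too, except that in LOY kidneys Psmb9 (12.3 ± 3.88 CPM per kb) came before Tap1 (11.3 ± 2.12), within their spread. With ABT263, Tap1 and Psmb8 (10.59 ± 3.14 and 10.52 ± 3.13 CPM per kb) and Tap2 and Psmb9 (8.77 ± 1.85 and 8.61 ± 2.18) changed places, also within their spread.

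The first comparison sets kidneys with a LOY blood system against Control kidneys. Transcripts of the class I light chain B2m, the heavy chain H2-K1 and the immunoproteasome subunit Psmb9 rose in LOY kidneys, by 1.87-fold, 1.5-fold and 1.93-fold. The other 7 genes had higher means in LOY kidneys too, but their differences did not pass the test. Thus 3 of the 10 rose and 0 fell (edgeR quasi-likelihood test, Benjamini-Hochberg adjusted p under 0.05 over all tested genes), where 1.11% of all tested genes rose and 0.0601% fell. The median log2 fold change was 0.66 over the 10 genes and 0.02 over all tested genes, and 10 of 10 against 52.3% of all genes were positive. At an unadjusted p under 0.05, all 10 were higher and none lower, against 13.5% and 9.33% of all tested genes. Labels name separate animals, so the tests measure spread between animals.

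**Figure D2:**
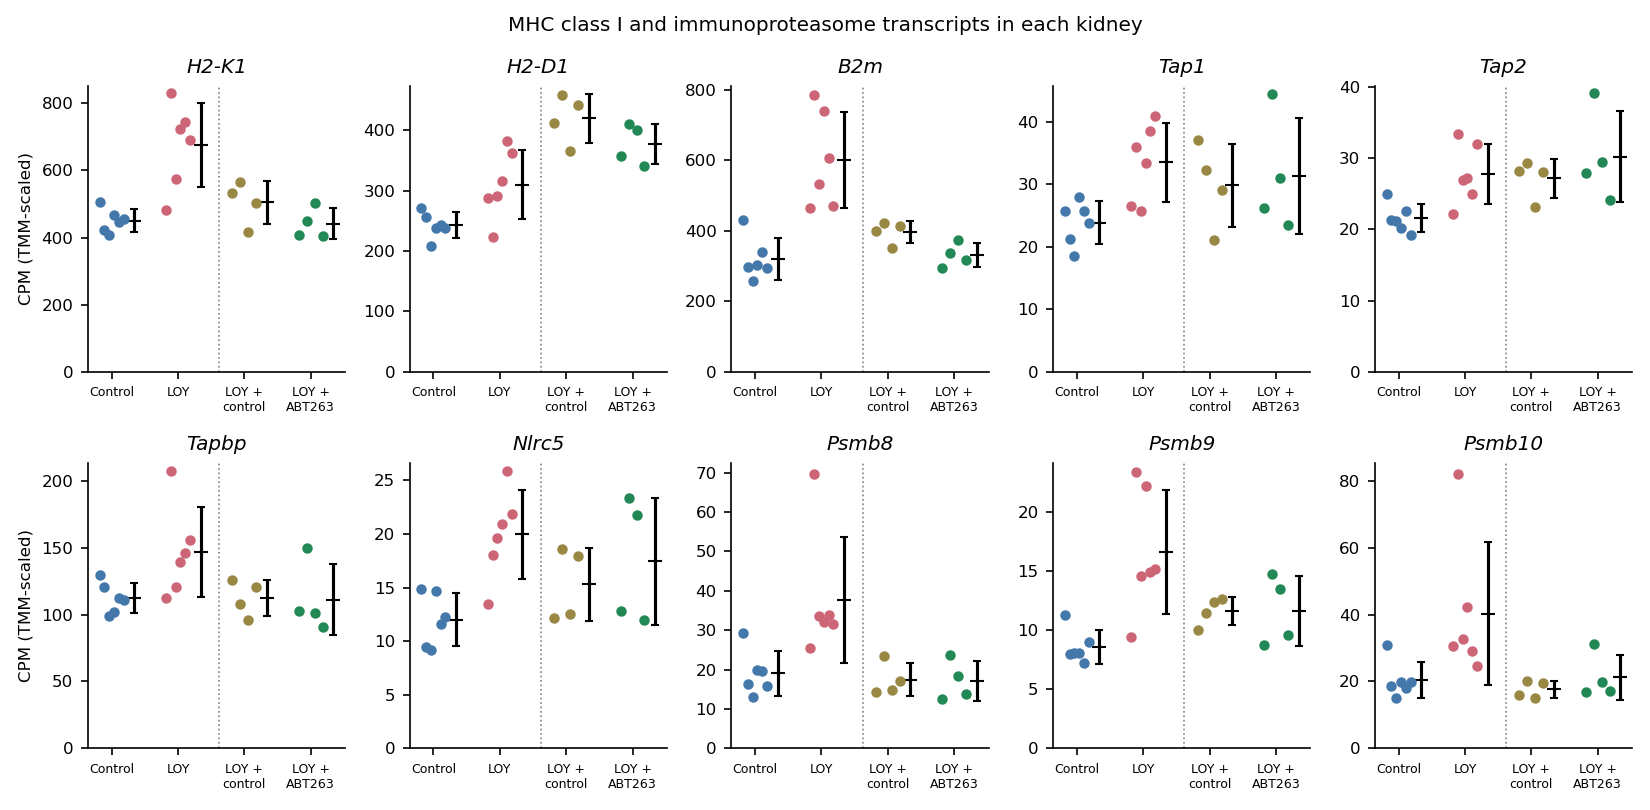
CPM (counts scaled to library size with TMM factors, linear axis from 0) of the 10 genes, with 1 point per kidney ordered by animal number and a bar for mean ± SD beside each group. The dotted line parts the tables, which were scaled separately. All 6 LOY kidneys lie above all 6 Control kidneys for B2m, and the second LOY point of each panel is animal 8, at 69.7 CPM for Psmb8 and 82.1 CPM for Psmb10.

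B2m (chromosome 2, 122147686 to 122153083, GRCm38), the chain shared by all class I molecules, ranged from 259 CPM through a median of 301 to 432 CPM in Control kidneys. In LOY kidneys it ranged from 464 through 569 to 784 CPM. The lowest LOY kidney was above the highest Control kidney, which was animal 3. The means were 321 ± 59.8 and 599 ± 136 CPM (SD, n = 6 each), a log2 fold change of 0.90 ± 0.16 (SE, adjusted p = 0.0250). B2m was the only one of the 10 genes whose groups did not overlap, where 1.56% of all tested genes had LOY kidneys wholly above and 0.461% wholly below Control. Its depth was 28036 counts in the Control group and 56080 in the LOY group. It passed in 6 of 12 repeats that each left out 1 kidney, with a log2 fold change of 0.81 to 1.004.

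H2-K1 (chromosome 17, 33996017 to 34000347), a classical heavy chain, ran from 407 through a median of 451 to 505 CPM in Control kidneys. LOY kidneys ran from 483 through 707 to 830 CPM. Only LOY animal 5 overlapped the Control range, and animal 8 was highest. The means were 450 ± 34.5 and 675 ± 125 CPM, a log2 fold change of 0.58 ± 0.13 (adjusted p = 0.0467). This call is close to the threshold: it was kept in 3 of the 12 repeats that left out 1 kidney (log2 fold change 0.51 to 0.65).

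The other classical heavy chain, H2-D1 (chromosome 17, 35262730 to 35267499), was at 208 to 272 CPM (median 241) in Control and at 223 to 382 CPM (median 303) in LOY kidneys. Here 5 of 6 LOY kidneys lay above all Control kidneys, and animal 8 fell among the Control values. The means were 243 ± 21.3 and 310 ± 57.2 CPM, and the log2 fold change of 0.35 ± 0.13 did not pass (adjusted p = 0.154). It was 0.43 without LOY animal 8 (adjusted p = 0.0507). Of the 100-base windows of the H2-D1 transcript 4.64% also occur in other genes, including H2-Q1 and H2-T23, so reads there can be split by the counting; H2-K1 shared none.

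LOY animal 8 stood apart in its heavy chains. Its H2-D1 to H2-K1 ratio was -1.89 on the log2 scale, while the other 11 kidneys lay between -1.20 and -0.71. Of 17 class I genes it was above all other kidneys for 5 (H2-K1, H2-K2, H2-Q1, H2-Q7 and H2-Q10) and below all others for 3 (H2-Q6, H2-T9 and Cd1d1). H2-K2, a class I gene neighbouring H2-K1, was at 35.0 CPM there and at 6.14 to 13.5 CPM elsewhere; this gene list was examined because of the ratio, after its values were seen.

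Nlrc5 (chromosome 8, 94434356 to 94527272), the class I transactivator, was at 9.15 to 14.9 CPM (median 11.9) in Control kidneys. In LOY kidneys it was at 13.5 to 25.8 CPM (median 20.3). Only LOY animal 5 lay within the Control range. The log2 fold change of 0.73 ± 0.17 just missed the threshold (adjusted p = 0.0506). With its 8.12 kb of exon it is the longest of the 10, and its difference ran against that of other transcripts over 4 kb, whose median log2 fold change was -0.10. With offsets for transcript length, an alternative chosen after seeing the data, it was 0.89 (adjusted p = 0.0308).

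The loading genes were higher in LOY kidneys by smaller amounts, and none passed. Tap1 (chromosome 17, 34187553 to 34197225), a subunit of the peptide pump, was at 18.5 to 27.9 CPM (median 24.7) in Control and 25.7 to 40.8 CPM (median 34.6) in LOY kidneys. The log2 fold change was 0.49 ± 0.14 (adjusted p = 0.0942). Tap2 (34203527 to 34216321), its partner, was at 19.3 to 24.99 CPM (median 21.2) and 22.1 to 33.4 CPM (median 27.1), a log2 fold change of 0.37 ± 0.12 (adjusted p = 0.122). Groups overlapped for both, with 4 LOY kidneys above all Control kidneys for Tap1 and 5 for Tap2.

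Tapbp (33915899 to 33929292), which encodes tapasin, the chaperone that bridges the heavy chain and the pump, was at 99.0 to 129 CPM (median 112) in Control kidneys. LOY kidneys held 113 to 208 CPM (median 143), with animal 8 far above the next, and 2 of 6 within the Control range. The log2 fold change of 0.39 ± 0.14 did not pass (adjusted p = 0.147), and without animal 8 it was 0.26 (adjusted p = 0.176). Several of these genes overlap others: Tap1 and Psmb9 share 212 exon bases on opposite strands, Tap2, Psmb8 and Tapbp overlap annotated antisense genes, and Tapbp shares 149 bases with Zbtb22 on the same strand. The labels do not state whether counting used strand, so reads from opposite strands could not be told apart there.

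**Figure D3:**
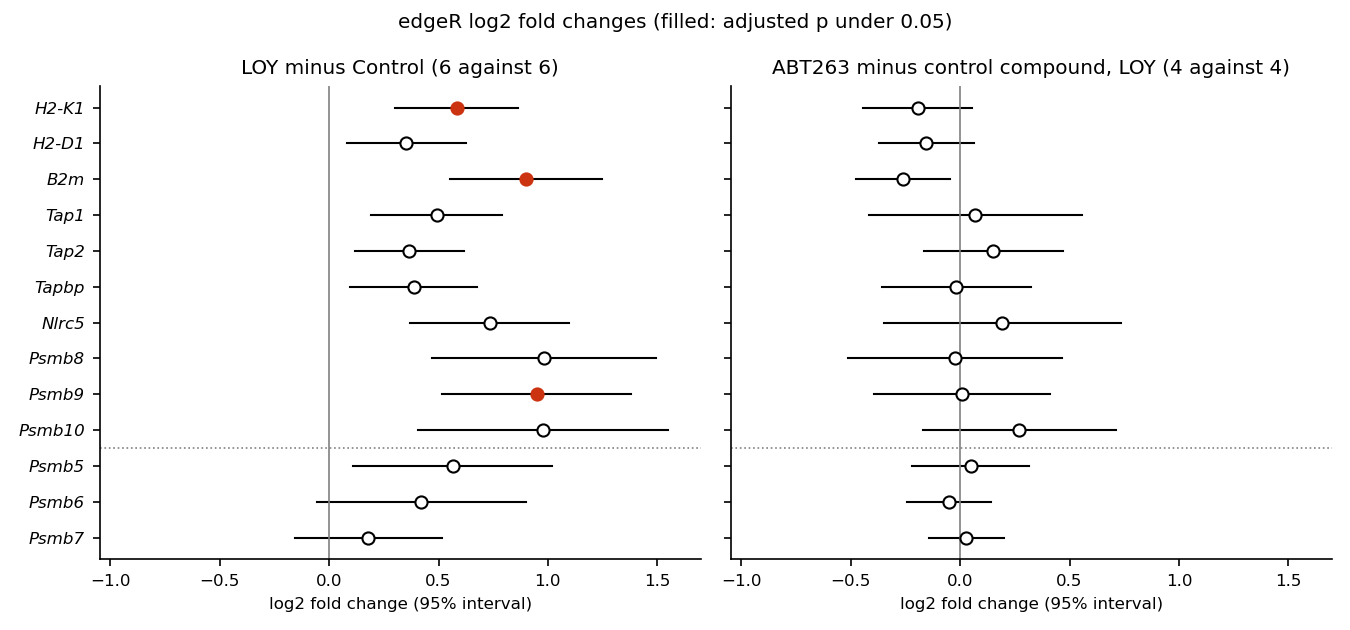
edgeR log2 fold changes (horizontal axis) with 95% intervals for the 10 genes and, under the dotted line, the 3 constitutive subunits, in LOY against Control (left) and ABT263 against control compound in LOY (right); filled points have an adjusted p under 0.05. On the left all points are positive and 3 are filled (H2-K1 0.58, B2m 0.90, Psmb9 0.95), and on the right the 10 genes lie between -0.26 and 0.27 with none filled.

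The 3 inducible proteasome subunits had log2 fold changes of 0.95 to 0.98, with 1 past the threshold. These were the greatest of the 10 genes in this fit, but without LOY animal 8 B2m (0.81) and Nlrc5 (0.76) were above Psmb8 (0.72) and Psmb10 (0.64). With offsets for transcript length Nlrc5 (0.89) was greatest. Psmb9 (34181987 to 34187764), which replaces Psmb6, was at 7.26 to 11.3 CPM (median 8.05) in Control and 9.43 to 23.4 CPM (median 15.0) in LOY kidneys. The LOY group fell in steps, with animals 8 and 10 above 22 CPM, animals 9, 14 and 18 near 15 CPM and animal 5 within the Control range. The means were 8.61 ± 1.43 and 16.6 ± 5.24 CPM, a log2 fold change of 0.95 ± 0.20 (adjusted p = 0.0397), which was kept in 4 of the 12 repeats without 1 kidney (0.83 to 1.06).

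Psmb8 (34197721 to 34201454), which replaces Psmb5, was at 12.9 to 29.3 CPM (median 18.1) in Control and 25.5 to 69.7 CPM (median 32.8) in LOY kidneys. Only LOY animal 5 was below the highest Control kidney, animal 3. Its log2 fold change of 0.98 ± 0.24 missed the threshold (adjusted p = 0.0577). Without LOY animal 8, the highest kidney, it was 0.72 and passed (adjusted p = 0.0472).

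Psmb10 (chromosome 8, 105935735 to 105938444), which replaces Psmb7, was at 15.1 to 31.0 CPM (median 19.2) in Control and 24.7 to 82.1 CPM (median 31.6) in LOY kidneys. The groups overlapped, with 3 of 6 LOY kidneys above Control animal 3 and all 6 above the Control median. The log2 fold change of 0.98 ± 0.27 had an adjusted p of 0.0866. Without LOY animal 8 it was 0.64 (adjusted p = 0.0743).

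The constitutive subunits that these replace did not pass. For Psmb5 the log2 fold change was 0.56 ± 0.21 (adjusted p = 0.164), for Psmb6 0.42 ± 0.22 (0.262) and for Psmb7 0.18 ± 0.16 (0.482). LOY animal 8 was the highest kidney for each, and without it the values were 0.35, 0.14 and 0.02. The ratio of an inducible to its constitutive subunit, taken within each library as log2 of CPM plus a pseudocount of 0.5, needs no scaling between libraries. The Psmb10 to Psmb7 ratio was -3.07 to -2.32 (median -2.68) in Control and -2.32 to -1.39 (median -2.16) in LOY kidneys. It was above all Control kidneys in 5 of 6 LOY kidneys, with LOY animal 5 level with Control animal 3. The means differed by 0.73 (exact two-sided permutation test, p = 0.00433; adjusted p = 0.0260 over 6 ratio tests). Without LOY animal 8 the difference was 0.63 (exact permutation, adjusted p = 0.0390). It did not pass without Control animal 12 (0.66, exact permutation, adjusted p = 0.0649) or without LOY animals 8 and 10 together (0.47, exact permutation, adjusted p = 0.143).

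The Psmb8 to Psmb5 ratio differed by 0.42 between the group means, from -1.83 ± 0.29 to -1.41 ± 0.37 (exact permutation p = 0.0563, adjusted p = 0.121). For Psmb9 to Psmb6 the difference was 0.54, from -4.02 ± 0.11 to -3.48 ± 0.57 (exact permutation p = 0.0606, adjusted p = 0.121). Neither passed. In the second ratio LOY animals 10, 14 and 18 stood between -3.13 and -2.82, while animals 5, 8 and 9 stood between -4.18 and -3.82, within or just above the Control range of -4.18 to -3.86. Animal 8 was therefore high in Psmb9 itself but not in its ratio to Psmb6.

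**Figure D4:**
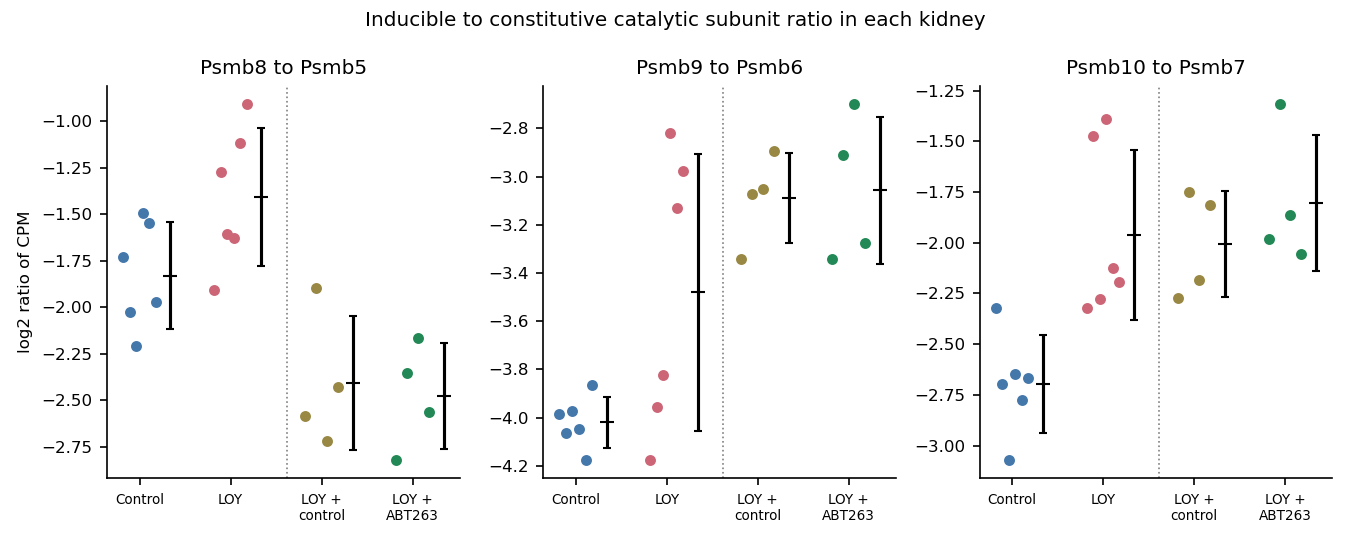
Log2 ratio of inducible to constitutive catalytic subunit (vertical axis; CPM plus 0.5) with 1 point per kidney and a bar for mean ± SD beside each group; the dotted line parts the tables. For Psmb10 to Psmb7, 5 of 6 LOY kidneys lie above all Control kidneys, and for Psmb9 to Psmb6 the LOY kidneys form a high and a low set of 3.

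Kidney by kidney, the median deviation of the 10 from their means over the table was -0.56 to 0.00 on the log2 scale in Control and -0.11 to 0.66 in LOY kidneys. Control animal 3 (0.00) was the highest Control and LOY animal 5 (-0.11) the lowest LOY kidney, so the groups overlapped by this pair. LOY animals 10 and 14 were above the mean for all 10 genes, and Control animals 11, 12, 16 and 17 for none. Within groups, Pearson's r over 12 kidneys between pairs of the 10 genes had a median of 0.57, ranged from -0.50 (H2-D1 with Psmb10) to 0.88 (Psmb8 with Psmb10), and was positive in 39 of 45 pairs. All 6 negative pairs held H2-D1, which ranged from -0.50 to 0.56 with the other 9 genes and was at 0.07 with H2-K1. Without LOY animal 8 all 45 pairs were positive over 11 kidneys, H2-D1 ranging from 0.18 to 0.91. These are descriptions over kidneys that share library depth and length effects.

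**Figure D5:**
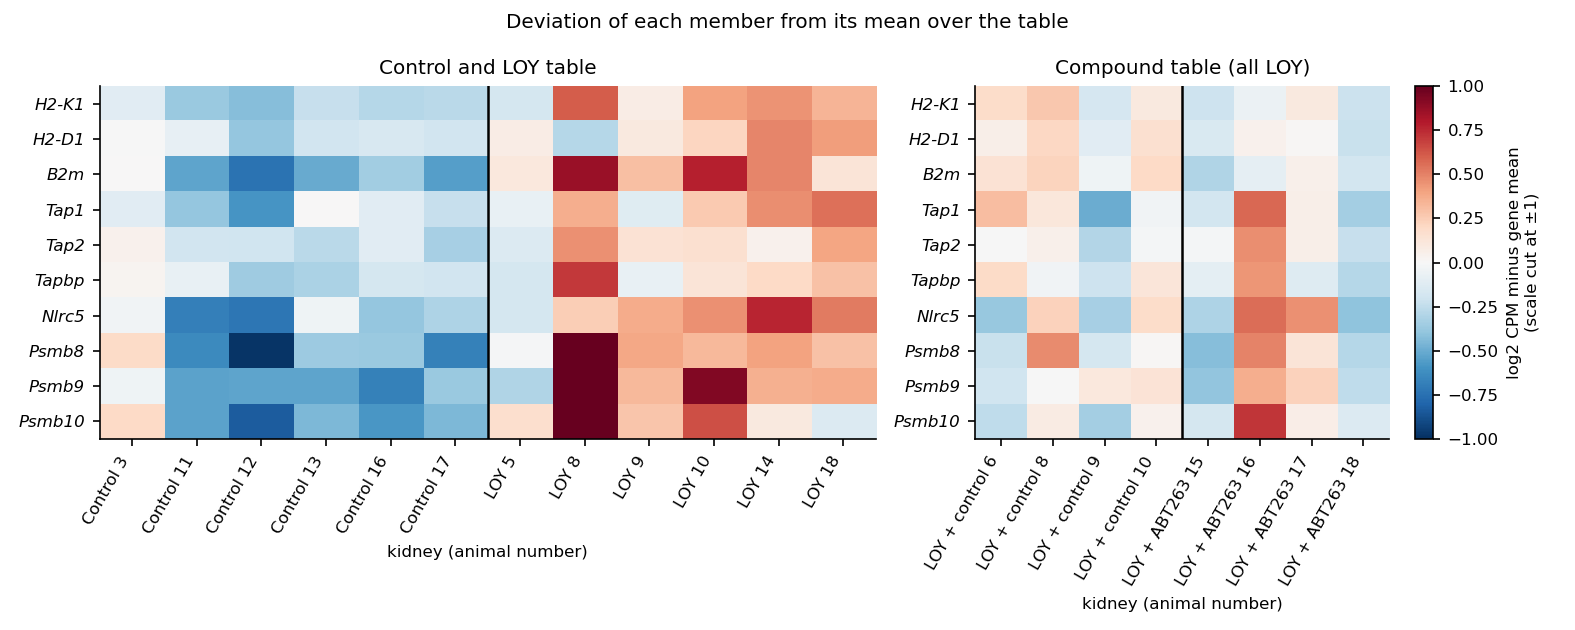
Log2 CPM of each gene minus its mean over the table (colour, cut at ±1) for every kidney (columns, by group and animal number). In the left panel Control animal 3 and LOY animal 5 are the palest columns of their groups and H2-D1 is blue in LOY animal 8; in the right panel ABT263 animal 16 is the reddest column, with a median deviation of 0.45.

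The number of the 10 genes past the threshold depended on single kidneys, while the direction did not. Over 24 alternative settings every one of the 10 log2 fold changes was positive. The count was 3, against 0 to 6 when 1 kidney was left out: leaving out Control animal 11, 12, 13, 16 or 17 or LOY animal 10 gave 0. In those 6 fits 0 to 9 of all tested genes passed, against 176 with every kidney, so calls were lost over the whole table. Leaving out Control animal 3 gave 6, where 607 of all tested genes passed, LOY animal 8 gave 5, LOY animal 5 gave 4, LOY animal 18 gave 2, and LOY animal 9 or 14 gave 1 (B2m). Without LOY animals 8 and 10 together it was 0, with B2m at 0.68 (adjusted p = 0.0575). Animal number went along with group, since 5 of 6 Control but 2 of 6 LOY animals were numbered above 10. Among these 7 alone, 9 of the 10 genes passed, all but Tap2, each higher in LOY, where 2.27% of all tested genes passed and were higher. B2m was at 0.85, H2-K1 at 0.71 and Nlrc5 at 1.06. With number above 10 as a term in the fit none passed, and neither did any of the other tested genes. The labels do not say what the animal number stands for.

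With offsets for transcript length 3 of the 10 genes rose, where 1.16% of all tested genes did: B2m (0.62, adjusted p = 0.0492), Nlrc5 (0.89, 0.0308) and Psmb8 (0.82, 0.0474). H2-K1 (0.45, adjusted p = 0.0798) and Psmb9 (0.76, 0.0539) then did not. Psmb5 was 0.22, Psmb6 0.01 and Psmb7 -0.08 in that fit. Without the offsets, each of the 10 genes lay above the median of tested transcripts of its length class, with B2m at 0.90 against 0.40 under 1 kb and Psmb9 at 0.95 against 0.18 at 1 to 2 kb. These values do not divide a gene's difference into a part that goes with transcript length and the rest. The part of transcript length was not tested.

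Few genes of the wider class I and proteasome lists passed. The 14 tested other class I genes had a median log2 fold change of 0.03. Of these 1 rose and 0 fell, where 1.11% of all tested genes rose and 0.0601% fell. The gene that rose was H2-Q7, a nonclassical class I gene, from 33.9 ± 6.79 to 59.7 ± 18.9 CPM (log2 fold change 0.82 ± 0.18, adjusted p = 0.0452). LOY animal 8 was at 96.5 CPM and the other 11 kidneys at most at 62.2 CPM. The value was 0.63 without animal 8 (adjusted p = 0.0292) and 0.54 without LOY animals 8 and 10 (adjusted p = 0.0833). The call was lost in 8 of 12 repeats without 1 kidney, and with median-ratio factors (adjusted p = 0.05003) and a filter of 1 CPM (0.0512). H2-T23, which encodes Qa-1, the mouse ligand of NKG2A receptors, was at 138 ± 6.80 and 141 ± 18.1 CPM (0.02 ± 0.10, adjusted p = 0.907). Of 8 loading and trimming partners none passed, the median being 0.02. Pdia3, the ERp57 of the peptide loading complex, had 0.25 ± 0.11 (adjusted p = 0.190).

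Among the other 11 subunits of the 20S core none passed, and all 11 values were positive (median 0.32). Positive values made up 52.3% of all tested genes, 88.6% of those with exons under 1 kb and 72.2% at 1 to 2 kb. The medians of these length classes were 0.40 and 0.18, and the part of transcript length was not tested. The 11 subunits summed to 1264 to 1510 CPM in Control and 1205 to 2428 CPM in LOY kidneys. None passed among 10 activators and assembly factors, in which Psme1 (0.53 ± 0.15, adjusted p = 0.1002) and Psme2 (0.55 ± 0.17, 0.112), the interferon-inducible PA28 activator, came nearest. LOY kidneys were wholly above Control for Psme1, as for 1.56% of all tested genes. Pomp, a proteasome assembly factor, had 0.49 ± 0.20 (adjusted p = 0.185). None of 18 subunits of the 19S regulator passed either (median 0.04).

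Of 14 tested interferon gamma pathway genes and MHC transcription factors 1 rose, Irf9, part of the interferon-activated ISGF3 complex, from 27.4 ± 3.08 to 40.1 ± 5.44 CPM (0.55 ± 0.11, adjusted p = 0.0365). It lost its call in 8 of 12 repeats without 1 kidney (0.50 to 0.61 over the 12), with library totals (adjusted p = 0.0509) and without LOY animals 8 and 10 (0.44, adjusted p = 0.101). Irf1, which binds class I promoters, had 0.49 ± 0.13 (adjusted p = 0.0726), and the receptor chain Ifngr1 had 0.44 ± 0.12 (0.0813). The 9 tested genes for class I readers and effectors on CD8 T, natural killer and myeloid cells had a median of 0.93. All 9 were positive and 1 rose, where 52.3% of all tested genes were positive and 1.11% rose. The reader gene that rose was Lilrb3, the class I-binding inhibitory receptor PIR-B of myeloid and B cells. It went from 5.18 ± 1.16 to 11.4 ± 3.19 CPM (1.14 ± 0.21, adjusted p = 0.0269). It did not pass in the 6 fits without Control animal 11, 12, 13, 16 or 17 or LOY animal 10 (adjusted p = 0.0696 to 0.103), nor without LOY animals 8 and 10 (1.02, adjusted p = 0.0677). Klrk1, which encodes NKG2D, had 1.55 ± 0.38 (adjusted p = 0.0577).

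By a fixed measure of likeness, the correlation with the mean of the 10 standardised genes within groups, the genes most like them over the 12 kidneys were the T cell surface gene Thy1 (r = 0.95), Ccdc88b (0.93), Irf9 (0.93), Fam113b (0.92), Pitpnm1 (0.90) and Lilrb4 (0.89). These were picked as the highest of all tested genes, so the values are descriptions.

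Some leukocyte markers were also higher in LOY kidneys. Ptprc, the pan-leukocyte CD45, rose from 18.2 ± 3.16 to 31.9 ± 5.51 CPM (log2 fold change 0.81 ± 0.14, adjusted p = 0.0250). All LOY kidneys were above all Control kidneys, as for 1.56% of all tested genes. Ptprc did not pass in the 6 repeats in which none of the 10 genes passed (adjusted p = 0.0682 to 0.0944). Without LOY animal 8 its log2 fold change was 0.87 (adjusted p = 0.0173). LOY animal 8 departed from the order of the class I genes. It had the highest median deviation of the 10 genes (0.66), but the lowest Ptprc (25.1 CPM) and Cd3e (0.96 CPM) of the LOY group. Among the other LOY kidneys, animals 10, 14 and 18 were above animals 5 and 9 in both measures. Their deviations were 0.36 to 0.43, against -0.11 (animal 5) and 0.21 (animal 9). Ptprc was at 36.3 to 37.0 CPM in these 3, against 29.7 (animal 5) and 26.5 CPM (animal 9). The summed level of 3 leukocyte markers was 49.9 to 96.6 CPM in Control and 107 to 138 CPM in LOY kidneys, and 2 of the 3 passed. For this count and those of macrophage and T cell markers, the share of all tested genes that rose was 1.11%. Of 7 macrophage markers 3 rose (C1qc, C1qa and Mrc1), the sums being 156 to 254 and 243 to 351 CPM. Cd3g and Cd3d rose among 7 listed T cell markers, of which 6 were in this table and tested, the sums being 7.60 to 10.6 and 15.6 to 25.5 CPM. Each of these calls was lost in the same 6 fits, and for C1qc and C1qa in no other of the 12 repeats without 1 kidney. The leukocyte marker Coro1a, Mrc1 and Cd3g lost their calls in 9 of the 12, and Cd3d in 11. Without LOY animal 8 the calls were kept except that of Cd3d (1.38, adjusted p = 0.0564).

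Other markers did not pass: Cd68 had 1.32 (adjusted p = 0.0543), Cd3e 0.93 and Cd8a 0.69. No natural killer cell marker passed of 3 tested (sums of all 6 markers 2.84 to 5.95 and 4.12 to 8.73 CPM), and Ncr1 was at 0 in all kidneys. None of 4 B cell markers passed (sums 2.81 to 9.745 and 4.66 to 17.6 CPM). None of 5 endothelial markers passed (sums 193 to 296 and 186 to 316 CPM), with Pecam1 at -0.11. None of 6 proximal tubule markers passed, and all 6 were negative, where 52.3% of all tested genes were positive. Lrp2 had -0.67 (adjusted p = 0.164), and the summed levels of the 6 were 9025 to 12009 and 4383 to 9341 CPM. LOY animals 8 and 10 stood apart here, with Lrp2 at 536 and 673 CPM (other LOY kidneys 1377 to 1599) and Cd68 at 31.1 and 28.3 CPM (others 11.3 to 13.4). They were also the highest LOY kidneys for B2m, Psmb9 and Psmb10, but not for H2-K1, H2-D1, Tap1, Tap2, Tapbp, Nlrc5 or Psmb8. H2-D1 was at 223 and 316 CPM in them (others 287 to 382) and Nlrc5 at 18.1 and 20.9 CPM (others 13.5 to 25.8). Without LOY animals 8 and 10, Lrp2 was -0.37 (adjusted p = 0.240) and Cd68 0.75 (adjusted p = 0.171). The part of these cell types in the class I values was not tested, and in whole tissue more class I-rich cells and more RNA per cell cannot be told apart.

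The second comparison sets ABT263 against the control compound in LOY kidneys. None of the 10 genes passed in either direction, and neither did any of 16956 tested genes (0% called higher and 0% lower by edgeR). At an unadjusted p under 0.05, 500 genes were higher (2.95%) and 502 lower (2.96%), and 1 of the 10 genes, B2m, was lower. DESeq2 called 44 genes and voom 11, none of them among the 10. Of the 10 genes 5 had a positive and 5 a negative log2 fold change, with a median of -0.0048, beside -0.0028 over all tested genes, of which 49.4% were positive.

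The light and heavy chains were lower in ABT263 kidneys on average. B2m was at 399, 420, 351 and 414 CPM with the control compound (animals 6, 8, 9 and 10) and at 293, 338, 373 and 318 CPM with ABT263 (animals 15, 16, 17 and 18). ABT263 animal 17 was above control animal 9, so the groups overlapped by this pair, as they did for each of the 10 genes; among all tested genes 2.04% had ABT263 kidneys wholly above and 2.25% wholly below. The means were 396 ± 31.4 and 331 ± 33.7 CPM (SD, n = 4 each), a log2 fold change of -0.26 ± 0.10 (95% interval -0.47 to -0.05, adjusted p = 0.766).

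H2-K1 was at 533, 566, 417 and 503 CPM with the control compound and at 408, 450, 503 and 404 CPM with ABT263. H2-D1 was at 412, 459, 366 and 443 CPM and at 358, 410, 401 and 341 CPM. For both, as for B2m, no ABT263 kidney was above the median of the control-compound kidneys, and the ranges overlapped. The log2 fold changes were -0.19 ± 0.11 (95% interval -0.44 to 0.05) and -0.15 ± 0.10 (-0.37 to 0.06), each with an adjusted p of 0.847. Tested transcripts under 1 kb, the length class of B2m, had a median log2 fold change of -0.10. This median was -0.05 at 1 to 2 kb, the class of H2-K1, and -0.01 at 2 to 4 kb, the class of H2-D1. The part of transcript length in these differences was not tested.

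For each of the remaining 7 genes ABT263 animal 16 was the highest of the 8 kidneys. Tap1 was at 37.0, 32.2, 21.1 and 29.0 CPM with the control compound and at 26.2, 44.4, 31.0 and 23.5 CPM with ABT263. Nlrc5 was at 12.1, 18.6, 12.5 and 18.0 CPM and at 12.8, 23.3, 21.8 and 11.9 CPM. ABT263 animal 17 was also above every control-compound kidney for Nlrc5, Psmb9 and, narrowly, Tap2, and control-compound kidneys alone spanned 21.1 to 37.0 CPM for Tap1.

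The immunoproteasome genes overlapped between groups in the same way. Psmb8 was at 14.4, 23.4, 14.9 and 17.0 CPM with the control compound and at 12.5, 23.8, 18.4 and 13.8 CPM with ABT263. Psmb9 was at 9.98, 11.4, 12.4 and 12.6 CPM and at 8.70, 14.8, 13.5 and 9.59 CPM. Psmb10 was at 15.9, 20.1, 14.9 and 19.5 CPM and at 16.8, 31.1, 19.8 and 17.3 CPM. For Psmb8 the highest kidney of each group was nearly level, at 23.4 and 23.8 CPM. The log2 fold changes were -0.02 ± 0.22, 0.01 ± 0.18 and 0.27 ± 0.20.

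For Nlrc5 the log2 fold change was 0.19 ± 0.24, for Tap2 0.15 ± 0.14, for Tap1 0.07 ± 0.22 and for Tapbp -0.02 ± 0.15. The 95% intervals of these 7 genes reached from -0.51 (Psmb8) to 0.74 (Nlrc5), so differences up to these sizes lie within the intervals that 4 kidneys a group gave. The subunit ratios differed by -0.07 (Psmb8 to Psmb5, exact permutation p = 0.771), 0.03 (Psmb9 to Psmb6, 0.914) and 0.20 (Psmb10 to Psmb7, 0.429). The smallest adjusted p of these 3 ratios was 0.643. Without ABT263 animal 16 the log2 fold change of Tap1 was -0.14 and that of Psmb9 -0.13, and B2m remained negative in all 18 alternatives (-0.32 to -0.18).

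No gene of the wider lists passed with ABT263. Of the 13 tested other class I genes 6 were positive and 7 negative (median -0.02), and H2-Q7 was at 6.56 ± 1.63 and 6.13 ± 1.82 CPM. All 11 other 20S core subunits were negative by small amounts (median -0.08), and 15 of 18 subunits of the 19S regulator were (median -0.04). Positive values made up 49.4% of all tested genes, 25.8% of those with exons under 1 kb and 34.7% at 1 to 2 kb. The medians of these length classes were -0.10 and -0.05, and the part of transcript length was not tested. Ifngr1, a chain of the interferon gamma receptor, was at 66.6 ± 4.39 and 53.5 ± 4.42 CPM, with all ABT263 below all control-compound kidneys (-0.32 ± 0.08, adjusted p = 0.657), against 2.25% of all tested genes. All 8 tested class I readers and effectors were negative (median -0.34), with Klrd1, the CD94 of natural killer cells, at -0.85 ± 0.33 (adjusted p = 0.803).

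Beside the class I values, Ptprc was at 37.6 ± 13.7 and 29.98 ± 2.71 CPM (adjusted p = 0.856), and 3 leukocyte markers summed to 84.2 to 143 and 76.0 to 115 CPM. The 7 macrophage markers summed to 228 to 376 and 220 to 259 CPM, and 7 T cell markers to 9.45 to 24.7 and 9.56 to 13.8 CPM. Their part in the class I values was not tested. Within groups, pairs of the 10 genes had a median r of 0.74 over the 8 kidneys (0.30 to 0.94, all 45 positive). The genes most like the 10 here were Gm45494 (r = 0.99), Tonsl (0.99), Eif2ak2 (0.97), Rev1 (0.96), Gm48603 (0.96) and Egfr (0.96). The tables share no library, and each was fitted alone; the H2-D1 to H2-K1 ratio, -1.89 to -0.71 in the first and -0.37 to -0.14 in the second, shows that levels of these genes should not be set across them.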

How the data were processed

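Whole-kidney RNA was sequenced from 20 mice. The authors deposited whole-number counts per gene, and mm10 is the build named in the submitters' processing notes. Neither aligner, counter, annotation nor strandedness is stated there (not given in the sources used here). In the LOY table, an entry for reads without a gene (0.223% to 0.401% of counts) was left out. Groups follow the labels. Each table was tested alone with edgeR 4.0.16 in R 4.3.3 (TMM, filterByExpr with a minimum count of 10 and total of 15, robust quasi-likelihood F test). P-values were Benjamini-Hochberg adjusted, and 0.05 was the threshold; adjusted p-values of single genes come from this test. CPM are TMM-scaled means ± SD, and log2 fold changes carry SE. Subunit ratios used exact permutation over 924 or 70 splits. DESeq2 1.42.0 and voom (limma 3.58.1) were alternatives, beside other scalings, filters and kidneys left out.

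The genes and lists were chosen with earlier results of these data known. Named genes are the 10, the 3 constitutive subunits, genes of each list past the threshold or of smallest p, cell markers, and the 6 most alike per table. Scripts were tested on simulated data. Promoters are from RefSeq (GRCm38.p6), positions and exon lengths from GENCODE M21. Older symbols were matched through RefSeq synonyms. Protein sequences were not used here.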

Additional observations from a re-analysis of the deposited data

Results flagged for a closer look

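In 9 of 68 groups checked, 1 kidney lay farther from the next than Dixon's 95% limit allows. For a single group chance gives about 1 in 20. The 68 groups are related genes and ratios in the same kidneys, so the flags are not independent of one another. LOY animal 8 was far above the other LOY kidneys for Psmb8 (69.7 CPM, next 33.9), Psmb10 (82.1 CPM, next 42.4) and Psmb6 (370 CPM, next 213). Control animal 3 was far above the other Control kidneys for Psmb10 (31.0 CPM, next 19.8), Psmb5 (98.2 CPM, next 68.5), Psmb6 (187 CPM, next 142) and Psmb7 (157 CPM, next 131). Among control-compound kidneys, animal 6 was far above for Psmb7 (78.7 CPM, next 70.05). The log2 ratio of H2-D1 to H2-K1 was highest in Control animal 11 (-0.71, next -0.88). Control animal 3 and LOY animal 8 are also libraries in which short transcripts were high (0.17 and 1.01 on the log2 scale). LOY animals 5 and 9 were higher than Control animal 3 in this measure (0.20 and 0.32) and had no flag.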

How the results depend on the processing

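In LOY against Control the log2 fold changes of all 10 genes were positive in all 24 alternatives, and the number past the threshold, 3, moved most. It was 7 with DESeq2 (Psmb8, Psmb10, Nlrc5 and Tap1 added), 8 with voom, 7 at an adjusted p of 0.1, 0 with animal number above 10 as a term, 9 in animals numbered above 10, 0 without LOY animals 8 and 10, and 0 to 6 without 1 kidney. It was 2 to 4 under other scalings and filters and with length offsets. Over all genes the count, 176, was 0 to 607 without 1 kidney, 866 with DESeq2, 1062 with voom, 549 at an adjusted p of 0.1, 105 with library totals, 451 above number 10, 29 without LOY animals 8 and 10, and 0 with the number term. The cause was not tested.

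The Psmb10 to Psmb7 ratio difference, 0.73, lost its call without Control animal 12 (0.66) and without LOY animals 8 and 10 (0.47). Without 1 kidney it ran from 0.62 to 0.81. Above number 10 it was 0.61, but that test of 5 against 2 kidneys could not pass. With 21 splits its exact permutation p of 0.0476 was the smallest possible (adjusted p = 0.0952). Psmb9 to Psmb6 ran from 0.41 to 0.68 and passed without LOY animal 5. Psmb6 turned to -0.11 above number 10, Psmb7 to -0.084 with length offsets, -0.021 with the number term and -0.069 above number 10, and Canx to 0.012 above number 10.

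With ABT263 none of the 10 genes passed in any of 18 alternatives; over all genes the count was 0 to 9 without 1 kidney and 388 without control-compound animal 6 and ABT263 animal 16. Small values turned sign. Without 1 kidney the ratio differences ran from -0.17 to 0.10 (Psmb8 to Psmb5) and from -0.086 to 0.13 (Psmb9 to Psmb6), and log2 fold changes from -0.14 to 0.19 (Tap1), -0.19 to 0.069 (Tapbp), -0.22 to 0.15 (Psmb8), -0.13 to 0.13 (Psmb9), -0.095 to 0.10 (Psmb5), -0.0020 to 0.075 (Psmb7), -0.45 to 0.0042 (H2-Q2), -0.016 to 0.092 (Pomp) and -0.26 to 0.20 (Cd68). Without animals 6 and 16 together the ratios were -0.099 (Psmb9 to Psmb6) and -0.051 (Psmb10 to Psmb7), and log2 fold changes were -0.027 (Tap1), -0.068 (Nlrc5), -0.19 (Psmb9), -0.018 (Psmb10), -0.12 (Psmb5), -0.011 (Tapbpl), -0.048 (Pomp) and -0.37 (Cd68). With voom they were -0.017 (Nlrc5), -0.13 (Psmb9), -0.054 (Psmb5), -0.018 (Pomp) and -0.25 (Cd68). Tapbp was 0.0035 with library totals, and with length offsets Psmb8 was 0.017 and Psmb6 0.035.

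No paired analysis was possible because the groups compared share no animal number.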
